A study of Rattus norvegicus with 12 samples.

Results

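Axon guidance ligands and receptors were followed in the RNA of rat sciatic nerve stumps. Members were taken by gene symbol and comprised the semaphorins, the plexins and neuropilins that bind them, the ephrins and Eph receptors, the netrins and Unc5 receptors, and the Slits and Robo receptors. This gave 68 of the 30562 genes in the deposited table. They were 20 semaphorins, 11 plexins and neuropilins, 8 ephrins, 14 Eph receptors, 8 netrins and Unc5 receptors, and 7 Slits and Robo receptors. The stumps fell into 4 groups of 3 libraries. VP4:2 stumps had a truncated-cone conduit of the 4:2 gradient loaded with verteporfin, a compound known to block the partnership of YAP with TEAD factors and used here to test YAP. CC4:2 stumps had the 4:2 conduit and CC4:4 stumps a conduit of the 4:4 gradient, and Control stumps carry no further description in the labels. The labels gave no strain, sex, age or time after surgery and did not say what Control stumps carried. They did not name the animals either, so a p-value speaks only of the spread among the libraries given, part of which could be technical.

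Guidance cues steer growing axons by attraction or repulsion and act through receptors that reorganise the actin and microtubule skeleton of the growth cone. Many of the same proteins act outside neurons, on Schwann cells, fibroblasts, blood vessels and immune cells. In an injured peripheral nerve, Schwann cells and fibroblasts of the nerve sheath are known sources of such cues for regrowing axons.

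Totals ran from 13763106 to 18632301 counts per library. Levels are given in CPM, the usual counts scaled to a common library size. These were not corrected for gene length, so they are compared between groups for a gene and not between genes. A gene was called different at a Benjamini-Hochberg adjusted p under 0.05 in edgeR's quasi-likelihood test over all 15712 genes tested. Of the 68 members, 59 entered that test and 9 were too low. A gene can pass the filter on low counts through its highest group alone, so counts over the 59 are given as a description. Schwann cell markers, which define the labelled tissue, were present in every library, with a summed level of 12 genes between 12700 and 18600 CPM in VP4:2, between 13800 and 35800 CPM in CC4:2, between 2730 and 3450 CPM in CC4:4 and between 485 and 4720 CPM in Control. Control replicate 1 stood apart from the other Control libraries, with the lowest Schwann cell sum, 485 CPM, and a nerve fibroblast sum of 56500 CPM against 15700 and 14100 CPM in the other Control libraries. Member calls that change without it are named with the comparison they belong to.

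CC4:2 stumps were set against Control stumps to see which cues and receptors differed under the conduit. Of the 59 tested members, 28 were higher in CC4:2 and 6 were lower. Over all tested genes, 20.3% were higher and 23.2% were lower, against 47.5% and 10.2% of the tested members. The median log2 fold change was 0.73 over the members and -0.05 over all tested genes. The higher members included Sema3b, Sema5a, Ntn1, Ephb2, Unc5c and Slit2, and the lower members included Sema4a, Sema4d and Plxnc1. In 31 members every CC4:2 library lay above every Control library, and in 6 every CC4:2 library lay below. Over all tested genes this held for 23.5% above and 25.8% below. In bulk tissue, fewer cells of a type and less RNA per cell cannot be told apart. Without Control replicate 1 the count was 40 members, 35 higher and 5 lower. In the NovaSeq X Plus libraries alone, which are replicates 1 and 2 of each group, 21 of the 34 calls were made. Missed there were Sema3c, Sema3e, Sema3g, Sema5b, Sema6a, Nrp2, Plxna1, Plxnb3, Efnb1, Epha1, Epha7, Ephb1 and Robo4. Across every alternative setting run, none of the 34 called members (0) changed sign.

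**Figure D1:**
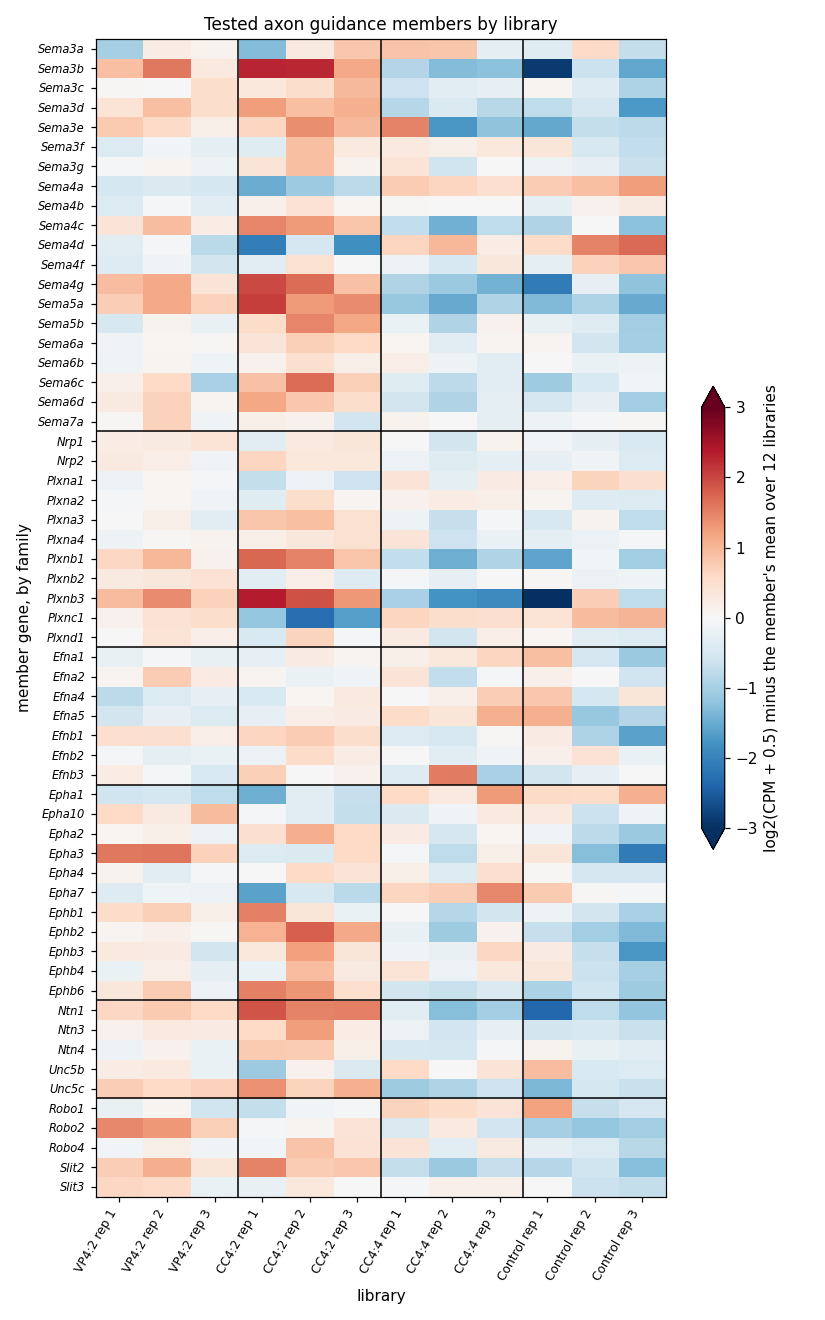
Level of the 59 tested members in each library, drawn as log2(CPM + 0.5) minus the member's mean over the 12 libraries (red higher, blue lower), with members in rows by family and libraries in columns by group. By group mean, Sema3b, Sema4g, Sema5a, Plxnb1, Plxnb3 and Ntn1 were highest in CC4:2, while Sema4a, Sema4d and Plxnc1 were lowest there. Single libraries of CC4:2 and VP4:2 overlapped for Sema3b, Sema4g, Plxnb1, Plxnb3 and Sema4d.

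Markers of several cell types moved in the same comparison. Of 12 Schwann cell and myelin markers, 11 were higher in CC4:2 than in Control, and so were 4 of 4 tested perineurial markers, with the summed perineurial level between 3760 and 4310 CPM in CC4:2 and between 181 and 736 CPM in Control. The perineurial marker Lypd2 was at 0 in every group. Of 10 T and NK cell markers 10 were lower in CC4:2, with sums between 17.6 and 57.4 CPM in CC4:2 and between 285 and 412 CPM in Control. Of 12 macrophage markers 8 were lower, with sums between 1050 and 1540 CPM in CC4:2 and between 2650 and 3190 CPM in Control. All 8 neutrophil markers and all 8 B and plasma cell markers were lower as well. Nerve fibroblast markers were higher for 5 of 10, with sums between 29700 and 64900 CPM in CC4:2 and between 14100 and 56500 CPM in Control. Adipocyte markers were higher for 8 of 8 and endothelial markers for 2 of 11. Among neuron markers 3 of 6 tested were higher and 1 was lower. The part of these cell types in the members' changes was not tested.

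Promoter windows were searched for letters that TEAD, SOX and EGR proteins are known to bind, since YAP works through TEAD and the Schwann cell lineage uses Sox10 and Egr2. RefSeq windows on build GRCr8 run from 250 bases before a gene's start to 50 bases after it, and 53 of the 68 members matched with 54 windows, Robo1 having a pair. Both strands were read, and matches of different motifs overlapped in 0 cases. GGAATG, the TEAD letters, lay in 6 of 54 member windows (11.1%) and in 14.2% of all 33469 windows. ACAAAG or ACAATG, the SOX letters, lay in 12 member windows (22.2%) and in 29.1% of all windows. GCGTGGGCG, the EGR letters, lay in 3 member windows (5.56%), those of Sema6d, Plxna2 and Efna3, and in 0.544% of all windows. Among windows of members higher in CC4:2 than in Control, 2 of 22 (9.09%) held the TEAD letters, and among those not called 2 of 21 (9.52%). The SOX letters lay in 22.7% of the higher and 23.8% of the not called, and the EGR letters in 4.55% and 4.76%. Of 4 windows of lower members, 1 held the TEAD letters, 2 the SOX letters and 0 the EGR letters. Of the members with EGR letters, Plxna2 was not called in that comparison and Efna3 was not tested. A match is only a description of the letters. Windows are printed for 4 of the members that hold a match, Sema6d, Plxnc1, Epha2 and Ephb2. They do not stand for the members at large.

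Semaphorins made up the largest family, and 12 of 20 were higher in CC4:2 than in Control and 2 were lower. Class 3 semaphorins are secreted and act through neuropilins and plexins. Sema3b (ENSRNOG00000016512), a neuropilin ligand, had 552, 543 and 249 CPM in CC4:2, against 14.9, 71.8 and 37.5 CPM in Control. The groups did not overlap, and the lowest CC4:2 library was the one read on the DNBSEQ-T7. In CC4:2 against Control the log2 fold change was 3.44 ± 0.56 (SE), with an adjusted p of 8.9e-04. Sema3d, another secreted ligand, had 51.2, 39.8 and 44.6 CPM in CC4:2, against 12.3, 14.7 and 6.06 CPM in Control, with a log2 fold change of 2.04 ± 0.28 (adjusted p = 3.9e-04). Sema3c, known for its part in vessel and heart development, had 199, 229 and 312 CPM in CC4:2, against 169, 122 and 83.8 CPM in Control (log2 0.98 ± 0.27, adjusted p = 0.013). Its groups lay close together without overlapping. The Sema3c call was lost in the NovaSeq X Plus libraries alone (adjusted p = 0.11) and in the fit of only the 6 libraries compared (0.05035). Sema3e, which binds plexin D1 directly, was low, with 2.81, 5.08 and 3.65 CPM in CC4:2 and 0.225, 0.781 and 0.727 CPM in Control (log2 2.76 ± 1.03, adjusted p = 0.0493). Its call was lost whichever of the 6 libraries was left out, with adjusted p between 0.066 and 0.12. Sema3g averaged 62.4 ± 17.8 CPM in CC4:2 and 34.4 ± 6.16 CPM in Control (SD, n = 3 each), with a log2 fold change of 0.86. That call was lost without Control replicate 3 (adjusted p = 0.076) or CC4:2 replicate 2 (0.093).

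Sema3a, the classical repellent of sensory axons, was low in all groups. It had 0.767, 2.47 and 2.22 CPM in VP4:2, 0.529, 2.54 and 3.92 CPM in CC4:2, 4.11, 4 and 1.57 CPM in CC4:4 and 1.46, 3.28 and 1.05 CPM in Control, and the groups overlapped throughout. It was called in none of the 5 comparisons (0). Sema3f, the main ligand of neuropilin-2, averaged 39.8 ± 16.9 CPM in CC4:2 and 26.6 ± 11.5 CPM in Control, a log2 difference of 0.58 that did not pass (adjusted p = 0.17). It passed without Control replicate 1 (log2 1.00, adjusted p = 0.023) or CC4:2 replicate 1 (0.0489).

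Class 4 semaphorins span the membrane, and their members went in opposite directions. Sema4g had 49.4, 39.9 and 22.9 CPM in CC4:2, against 2.47, 10.1 and 4.93 CPM in Control (log2 2.69 ± 0.46, adjusted p = 0.0011). Sema4c, a plexin B ligand, had 149, 130 and 95.6 CPM in CC4:2, against 28.4, 53.8 and 22.6 CPM in Control (log2 1.84 ± 0.34, adjusted p = 0.0018). Both were higher in every CC4:2 library than in any Control library. Sema4d, the ligand of plexin B1 that is also found on T cells, had 8.63, 26.9 and 10.3 CPM in CC4:2, against 56.5, 108 and 125 CPM in Control. The groups did not overlap, and the log2 fold change was -2.66 ± 0.46 (adjusted p = 0.0012). Sema4a, known from immune cells, had 19.9, 26.4 and 32.3 CPM in CC4:2, against 95.6, 106 and 136 CPM in Control (log2 -2.10 ± 0.19, adjusted p = 4.3e-05). The T and NK cell sum was between 17.6 and 57.4 CPM in CC4:2, against 285 to 412 CPM in Control. Neutrophil, macrophage, and B and plasma cell markers were lower in CC4:2 as well. The part of any of these cells in the Sema4d and Sema4a differences was not tested. Sema4f, linked to the contact between Schwann cells and axons, had 3.65, 6.71 and 4.7 CPM in CC4:2, against 3.88, 8.04 and 8.72 CPM in Control. These overlapped, and the log2 difference of -0.45 did not pass (adjusted p = 0.33).

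Sema5a (ENSRNOG00000011977), a transmembrane semaphorin with thrombospondin repeats and a known ligand of plexin B3, had 447, 258 and 284 CPM in CC4:2, against 41.8, 55.3 and 37.1 CPM in Control. Every CC4:2 library was several times above every Control library, with a log2 fold change of 2.88 ± 0.27 (adjusted p = 5.1e-05). Its relative Sema5b had 7.89, 15.4 and 12.3 CPM in CC4:2, against 4.39, 3.98 and 2.26 CPM in Control (log2 1.74 ± 0.37, adjusted p = 0.0039). Among class 6 semaphorins, which act as ligands of class A plexins, Sema6c, Sema6d and Sema6a were higher in CC4:2, with log2 fold changes of 1.73, 1.42 and 1.00. Sema6d had 139, 108 and 89.2 CPM in CC4:2 and 43.3, 51.8 and 30 CPM in Control, without overlap. Its window at chr3:132337106-132337405 on the plus strand is shown for the EGR letters, in capitals, at positions -221 to -213 from the start:
Sema6d: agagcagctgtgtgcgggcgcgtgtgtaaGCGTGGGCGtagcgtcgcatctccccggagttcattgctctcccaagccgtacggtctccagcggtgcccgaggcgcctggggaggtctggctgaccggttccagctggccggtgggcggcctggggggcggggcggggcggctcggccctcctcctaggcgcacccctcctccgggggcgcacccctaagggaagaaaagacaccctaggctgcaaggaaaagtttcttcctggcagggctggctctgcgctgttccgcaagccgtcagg

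The other members of the family, Sema4b, Sema6b and Sema7a, were not called in CC4:2 against Control. Sema7a, a lipid-anchored ligand of plexin C1, averaged 42.2 ± 11.2 CPM in CC4:2 and 42.4 ± 3.04 CPM in Control (SD, n = 3 each). Over the 6 semaphorins that did not pass, log2 differences lay between -0.45 and 0.58.

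Plexins and neuropilins are the semaphorin receptors, and 4 of 11 were higher in CC4:2 than in Control and 2 were lower. Plexin B1, the receptor of Sema4d, had 114, 96.2 and 61.3 CPM of Plxnb1 RNA in CC4:2, against 11.1, 32.1 and 16.3 CPM in Control. These did not overlap (log2 2.19 ± 0.40, adjusted p = 0.0016). Plxnb3, the receptor of Sema5a, had 71.1, 52.1 and 33.9 CPM in CC4:2, against 0.45, 22.9 and 7.75 CPM in Control (log2 2.35 ± 0.85, adjusted p = 0.044). Control replicate 1 was by far the lowest library, and the log2 fold change ran from 1.77 to 3.72 with a library left out. Its call was lost without Control replicate 3 (adjusted p = 0.12), CC4:2 replicate 1 (0.11), CC4:2 replicate 2 (0.081) or CC4:2 replicate 3 (0.0509), and the log2 fold change was 1.77 without Control replicate 1. Plxna3 averaged 17.6 ± 2.91 CPM in CC4:2 and 8.01 ± 2.69 CPM in Control (SD, n = 3 each; log2 1.13, adjusted p = 0.0071). Neuropilin-2, a co-receptor of class 3 semaphorins, had 333, 265 and 267 CPM of Nrp2 RNA in CC4:2 and 180, 198 and 160 CPM in Control, a small separation without overlap (log2 0.68 ± 0.16, adjusted p = 0.0053).

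Plexin C1, the receptor of Sema7a that is known from myeloid cells, showed the largest fall of any receptor among the members in CC4:2 against Control. Plxnc1 (ENSRNOG00000007970) had 43.4, 54 and 57.5 CPM in VP4:2, 17.4, 7.78 and 12.4 CPM in CC4:2, 62.5, 58 and 55.5 CPM in CC4:4 and 53, 77.1 and 80.7 CPM in Control. The CC4:2 libraries lay below all 9 others, which overlapped one another in part. CC4:2 against Control gave a log2 fold change of -2.49 ± 0.27 (adjusted p = 1.1e-04). Its window at chr7:31430556-31430855 on the minus strand is shown for the SOX letters, in capitals, at positions -125 to -120 from the start:
Plxnc1: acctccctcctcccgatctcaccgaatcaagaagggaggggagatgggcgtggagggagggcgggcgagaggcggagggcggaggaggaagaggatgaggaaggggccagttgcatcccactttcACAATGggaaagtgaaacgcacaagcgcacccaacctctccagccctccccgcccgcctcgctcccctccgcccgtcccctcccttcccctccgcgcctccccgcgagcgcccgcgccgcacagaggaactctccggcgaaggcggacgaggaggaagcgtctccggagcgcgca

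Plxna1, a receptor of class 3 and class 6 semaphorins, had 112, 163 and 120 CPM in CC4:2, against 213, 296 and 258 CPM in Control (log2 -0.95 ± 0.21, adjusted p = 0.0043). Neuropilin-1, a co-receptor of Sema3a and of VEGF, averaged 233 ± 55.8 CPM in CC4:2 and 173 ± 22.2 CPM in Control, and did not pass (log2 0.42, adjusted p = 0.14). Plxnd1, the endothelial receptor of Sema3e, had 183, 399 and 242 CPM in CC4:2 and 260, 198 and 188 CPM in Control, and the groups overlapped (log2 0.35, adjusted p = 0.36). Plxna2 averaged 31.6 ± 9.89 CPM in CC4:2 and 24.7 ± 5.17 CPM in Control (log2 0.35, adjusted p = 0.2). CC4:2 replicate 1 was the lowest CC4:2 library for Plxna2, Nrp1 and Plxnd1. Without it, Nrp1 and Plxna2 passed, each with an adjusted p of 0.038. The remaining plexins Plxna4 and Plxnb2 did not pass.

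**Figure D2:**
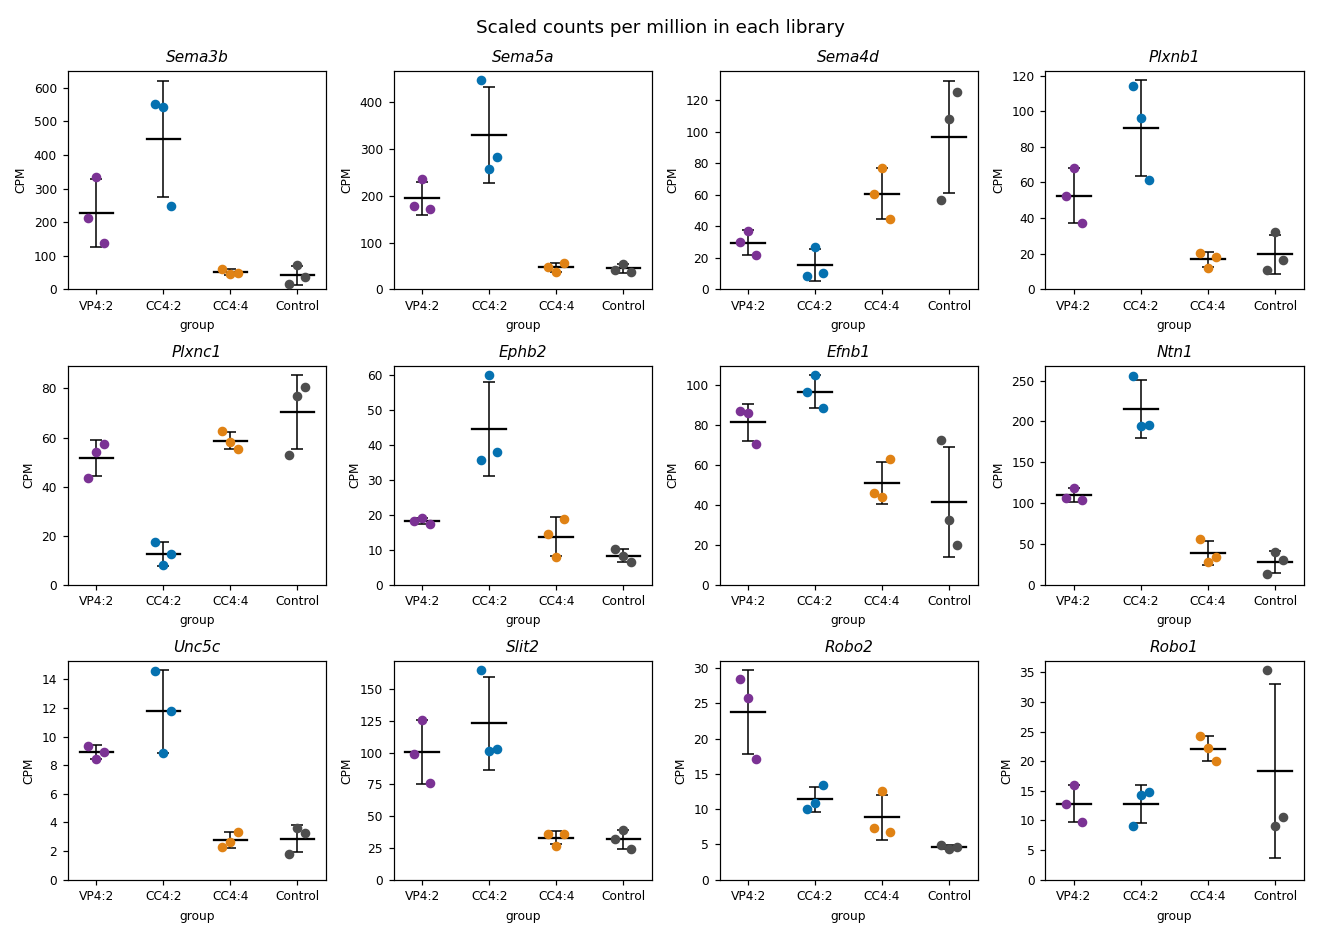
Scaled CPM in each library (points) for 12 members, with the mean (bar) and SD (whisker) of 3 libraries in VP4:2, CC4:2, CC4:4 and Control. By group mean, Ntn1, Sema5a, Slit2 and Plxnb1 stood highest in CC4:2 and lower in VP4:2. Plxnc1 and Sema4d had their lowest mean in CC4:2, and Robo2 its highest in VP4:2.

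Ephrins are membrane-bound ligands of the Eph receptors, and 1 of 7 tested was called in CC4:2 against Control. Ephrin-B1 had 96.6, 105 and 88.4 CPM of Efnb1 RNA in CC4:2, against 72.3, 32.2 and 19.7 CPM in Control, where replicate 1 lay far above the other Control libraries. Its log2 fold change was 1.22 ± 0.37 (adjusted p = 0.021). The call was lost without Control replicate 2 (adjusted p = 0.057) or CC4:2 replicate 2 (0.056), and without Control replicate 1 the log2 fold change was 1.90. Ephrin-B2, an arterial marker, had 6.3, 10.7 and 8.41 CPM of Efnb2 RNA in CC4:2 and 7.99, 9.76 and 6.14 CPM in Control, which overlapped (log2 0.09, adjusted p = 0.78). The A-class ephrins attach to the membrane by a lipid anchor. Efna1 had 15.9, 22.6 and 20.1 CPM in CC4:2, against 35.9, 13.1 and 8.4 CPM in Control (log2 0.02 ± 0.41, adjusted p = 0.97). Control replicate 1 was again the high library, and without it Efna1 passed with an adjusted p of 0.012 and a log2 fold change of 0.86. Efna5 had 6.94, 9.47 and 9.82 CPM in CC4:2, against 17.7, 3.51 and 4.28 CPM in Control, so its spread also rested on Control replicate 1 (log2 0.03, adjusted p = 0.97). Without that library its log2 fold change was 1.17 (adjusted p = 0.0061). Efna2, Efna4 and Efnb3 stayed under 5 CPM in every library and were not called.

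Eph receptors are tyrosine kinases, and 4 of 11 tested were higher in CC4:2 than in Control and 2 were lower. EphB2, which in rodent nerve is known to sort Schwann cells into cords on contact with fibroblast ephrin-B, had 18.1, 19.1 and 17.4 CPM of Ephb2 RNA (ENSRNOG00000012531) in VP4:2, 35.7, 59.9 and 37.9 CPM in CC4:2, 14.6, 7.86 and 18.7 CPM in CC4:4 and 10.3, 8.04 and 6.54 CPM in Control. CC4:2 was above every other library, and VP4:2 lay between CC4:2 and Control. The log2 fold change was 2.42 ± 0.32 in CC4:2 against Control (adjusted p = 2.9e-04). The windows of Ephb2 at chr5:154360375-154360674, minus strand, and of Epha2 at chr5:158888379-158888678, plus strand, are shown for a match in each. Capitals mark the SOX letters in Ephb2, at positions -193 to -188 from the start, and the reverse complement of the TEAD letters in Epha2, at positions -75 to -70:
Ephb2: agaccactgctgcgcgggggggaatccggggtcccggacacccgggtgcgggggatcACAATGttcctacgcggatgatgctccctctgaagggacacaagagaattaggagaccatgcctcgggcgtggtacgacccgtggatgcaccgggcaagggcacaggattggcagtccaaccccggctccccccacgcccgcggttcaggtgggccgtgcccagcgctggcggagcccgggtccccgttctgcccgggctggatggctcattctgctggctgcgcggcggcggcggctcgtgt
Epha2: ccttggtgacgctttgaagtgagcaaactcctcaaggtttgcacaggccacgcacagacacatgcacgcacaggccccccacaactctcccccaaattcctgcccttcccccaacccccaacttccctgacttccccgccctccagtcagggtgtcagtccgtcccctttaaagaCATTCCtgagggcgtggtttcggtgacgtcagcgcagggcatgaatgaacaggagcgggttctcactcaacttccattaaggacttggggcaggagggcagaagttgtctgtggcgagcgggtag

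Ephb6, a receptor without kinase activity, had 78, 68.9 and 38.8 CPM in CC4:2, against 13.7, 17.7 and 12.8 CPM in Control (log2 2.07 ± 0.29, adjusted p = 4.0e-04). Epha2, a receptor best known from epithelia, had 29.3, 45.1 and 31.9 CPM in CC4:2, against 19.1, 12 and 9.37 CPM in Control (log2 1.39 ± 0.29, adjusted p = 0.0032). Neither overlapped. Ephb1 had 10.4, 4.4 and 2.87 CPM in CC4:2, against 2.98, 2.11 and 1.45 CPM in Control, which overlapped, with CC4:2 replicate 1 far above the rest (log2 1.42, adjusted p = 0.034). Without that library its log2 fold change was 0.72 (adjusted p = 0.18), and it also missed without Control replicate 2 (0.072) or Control replicate 3 (0.1). Epha1 had 1.01, 2.76 and 2.09 CPM in CC4:2, against 5.68, 5.54 and 8.24 CPM in Control (log2 -1.73 ± 0.38, adjusted p = 0.0048). Epha7 was low, with 0.212, 1.07 and 0.731 CPM in CC4:2 and 3.26, 1.72 and 1.62 CPM in Control (log2 -1.71, adjusted p = 0.022), and missed without Control replicate 1 (log2 -1.30, adjusted p = 0.074). Both of these fell without overlap.

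EphB4, the venous partner of ephrin-B2, had 61.7, 135 and 85.2 CPM of Ephb4 RNA in CC4:2, against 89.1, 45.1 and 34.9 CPM in Control, and the groups overlapped (log2 0.73, adjusted p = 0.12). Epha4, a receptor of both ephrin classes, averaged 10.3 ± 2.21 CPM in CC4:2 and 6.37 ± 1.54 CPM in Control (SD, n = 3 each; log2 0.68, adjusted p = 0.07). Without Control replicate 1, Ephb4 passed with a log2 fold change of 1.24 (adjusted p = 0.012) and Epha4 with 0.91 (0.032). Ephb3, with a log2 difference of 1.24, missed the threshold (adjusted p = 0.057) although its groups did not overlap. Epha3 and Epha10 were not called either. Without Control replicate 1, Ephb3 (log2 1.88, adjusted p = 0.0083) and Epha3 (log2 1.93, adjusted p = 0.016) passed as well.

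Netrins and their Unc5 receptors gave 4 higher members of 5 tested in CC4:2 against Control. Netrin-1 is secreted and attracts axons through DCC and repels them through Unc5 receptors. Ntn1 (ENSRNOG00000003947) had 106, 119 and 104 CPM in VP4:2, 256, 194 and 196 CPM in CC4:2, 55.4, 28.1 and 33.3 CPM in CC4:4 and 13, 40.4 and 29.8 CPM in Control. The VP4:2 and CC4:2 libraries stood apart from each other and from the other groups, while CC4:4 and Control overlapped. CC4:2 against Control gave a log2 fold change of 2.96 ± 0.38 (adjusted p = 2.6e-04). Its receptor gene Unc5c had 9.37, 8.43 and 8.93 CPM in VP4:2, 14.6, 8.85 and 11.8 CPM in CC4:2, 2.29, 2.64 and 3.35 CPM in CC4:4 and 1.8, 3.59 and 3.23 CPM in Control. It was high in VP4:2 and CC4:2 libraries and low in CC4:4 and Control libraries (log2 2.04 ± 0.29 in CC4:2 against Control, adjusted p = 4.1e-04). Ntn4, a netrin of basement membranes, averaged 35.5 ± 7.82 CPM in CC4:2 and 21.2 ± 3.34 CPM in Control (log2 0.75 ± 0.20, adjusted p = 0.012). Ntn3 was low, at 2.12 ± 0.983 CPM in CC4:2 and 0.557 ± 0.0702 CPM in Control (log2 1.91, adjusted p = 0.0034). Unc5b, the netrin receptor of blood vessels, had 10.4, 24.8 and 16.7 CPM in CC4:2, against 43.3, 16.2 and 17 CPM in Control. These overlapped, with Control replicate 1 highest (log2 -0.57, adjusted p = 0.28), and without that library the log2 difference was 0.06 (0.9).

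Slits are secreted repellents that act through Robo receptors, and 3 of 5 tested members were higher in CC4:2 than in Control. Slit2 (ENSRNOG00000003840) had 99.1, 126 and 76.3 CPM in VP4:2, 165, 101 and 103 CPM in CC4:2, 35.7, 26.9 and 36.2 CPM in CC4:4 and 32.1, 39 and 23.9 CPM in Control. VP4:2 and CC4:2 overlapped, and both lay above all CC4:4 and Control libraries (log2 1.96 ± 0.26 in CC4:2 against Control, adjusted p = 3.3e-04). Slit3, which in mouse nerve is known to reach Schwann cells from macrophages, had 186, 179 and 105 CPM in VP4:2, 103, 151 and 121 CPM in CC4:2, 118, 134 and 134 CPM in CC4:4 and 122, 77.4 and 73.7 CPM in Control. It overlapped between CC4:2 and Control (log2 0.45, adjusted p = 0.17) and passed without Control replicate 1 (log2 0.72, adjusted p = 0.035). Its receptor gene Robo1 had 12.8, 16 and 9.74 CPM in VP4:2, 9, 14.3 and 14.8 CPM in CC4:2, 24.2, 22.2 and 20 CPM in CC4:4 and 35.3, 9.14 and 10.5 CPM in Control. The Control libraries spanned nearly the whole range, with replicate 1 the highest of all (log2 -0.53 in CC4:2 against Control, adjusted p = 0.36). Without that library the log2 difference was 0.37 and did not pass either. Robo2, a neuronal Slit receptor gene, had a log2 fold change of 1.30 ± 0.27 (adjusted p = 0.0033), and its values are given with VP4:2 against CC4:2. Robo4, the Robo receptor of endothelium, averaged 33.4 ± 10.7 CPM in CC4:2 and 17.3 ± 3.4 CPM in Control (log2 0.95 ± 0.26, adjusted p = 0.013). That call was lost without Control replicate 3 (adjusted p = 0.05005) or CC4:2 replicate 2 (0.055).

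Known ligands and receptors were not always called together in CC4:2 against Control. Sema5a and its receptor gene Plxnb3 were both higher, as were Ntn1 and Unc5c, Slit2 and Robo2, and Efnb1 and Ephb2. The calls of Plxnb3 and Efnb1 were among those lost with single libraries left out. Among the other tested Unc5, Robo and EphB receptor genes, Unc5b, Robo1, Ephb3 and Ephb4 were not called, while Robo4, Ephb1 and Ephb6 were higher. Sema4d was lower while its receptor gene Plxnb1 was higher. Plxnc1 was lower while its ligand gene Sema7a was not called. Sema3e was higher while Plxnd1 was not called, and neither member of the pairs Efnb2 and Ephb4 or Slit3 and Robo1 was called.

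VP4:2 stumps were set against CC4:2 stumps to see which members differed when verteporfin was in the conduit. Of the 59 tested members, 2 were higher in VP4:2 and 2 were lower. Plxnc1, the plexin C1 receptor gene, and Robo2, a Slit receptor gene, were higher, while Ephb2 and Sema5b were lower. Over all tested genes 5.23% were higher and 0.999% were lower, against 3.39% of the tested members in each direction. At an unadjusted p under 0.05 there were 17 members, beside 3475 of all 15712 genes. The log2 fold change was negative for 42 members and positive for 17, with a median of -0.45 over the members and -0.03 over all tested genes.

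Plxnc1 was higher in every VP4:2 library than in any CC4:2 library, with values given above and a log2 fold change of 2.04 ± 0.27 (adjusted p = 0.0013). It was called with each library left out in turn, with log2 fold changes from 1.79 to 2.35, but not in the NovaSeq X Plus libraries alone (adjusted p = 0.071). Robo2 (ENSRNOG00000029598) had 28.5, 25.7 and 17.1 CPM in VP4:2, 9.95, 10.8 and 13.4 CPM in CC4:2, 7.39, 12.5 and 6.7 CPM in CC4:4 and 4.89, 4.29 and 4.68 CPM in Control. VP4:2 was above all other libraries, and the Control libraries were below all others. The log2 fold change was 1.06 ± 0.26 in VP4:2 against CC4:2 (adjusted p = 0.037). The call was lost without CC4:2 replicate 1 (0.11), CC4:2 replicate 2 (0.12), CC4:2 replicate 3 (0.0545), VP4:2 replicate 1 (0.14) or VP4:2 replicate 2 (0.096). With platform as a term its adjusted p was 0.051, and in the NovaSeq X Plus libraries alone it was 0.083.

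Ephb2 fell in VP4:2 with a log2 fold change of -1.29 ± 0.30 against CC4:2 (adjusted p = 0.031), and the groups did not overlap. Its call was lost without CC4:2 replicate 2 (0.11), VP4:2 replicate 1 (0.1), VP4:2 replicate 2 (0.077) or VP4:2 replicate 3 (0.12), and in the NovaSeq X Plus libraries alone (0.17). Sema5b (ENSRNOG00000002238) had 3.62, 5.69 and 4.38 CPM in VP4:2, 7.89, 15.4 and 12.3 CPM in CC4:2, 4.46, 2.57 and 5.74 CPM in CC4:4 and 4.39, 3.98 and 2.26 CPM in Control. CC4:2 was above every other library, and the other 3 groups overlapped. Its log2 fold change was -1.38 ± 0.36 in VP4:2 against CC4:2, at an adjusted p of 0.04995. The call was kept without CC4:2 replicate 1 and lost without CC4:2 replicate 2 (0.17), CC4:2 replicate 3 (0.098), VP4:2 replicate 1 (0.18), VP4:2 replicate 2 (0.075) or VP4:2 replicate 3 (0.17). It was lost as well with platform as a term (0.07), with no filter on low counts (0.057) and in the NovaSeq X Plus libraries alone (0.29).

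**Figure D3:**
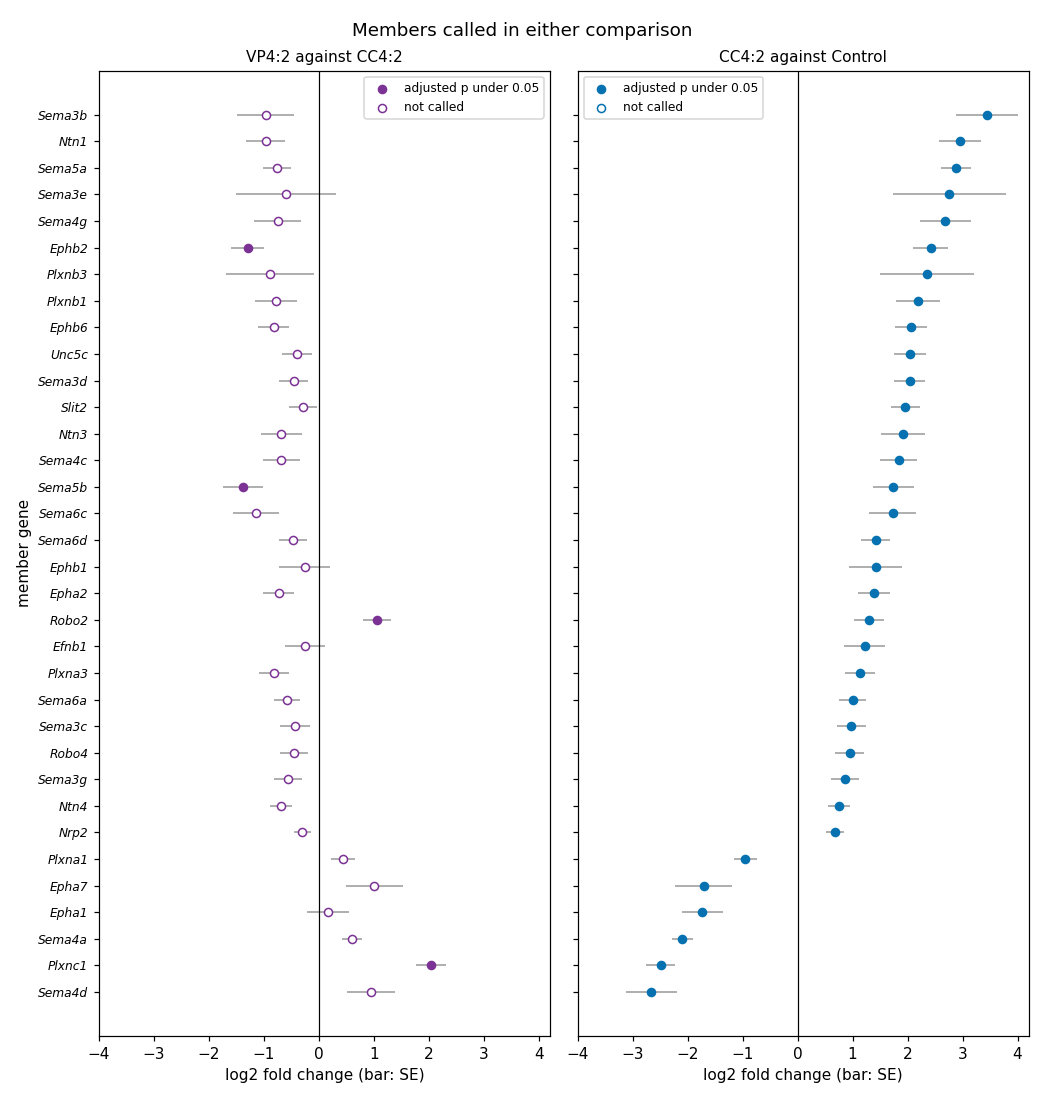
Log2 fold change with its SE for the 34 members called in CC4:2 against Control, shown for VP4:2 against CC4:2 (left) and CC4:2 against Control (right), with filled points where the adjusted p was under 0.05. Both panels use the CC4:2 libraries, so a low or high CC4:2 library moves a member in opposite directions in them. On the left only Plxnc1, Robo2, Ephb2 and Sema5b were filled.

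Members with the largest differences between CC4:2 and Control mostly did not pass between VP4:2 and CC4:2. Ntn1 was lower in every VP4:2 library than in any CC4:2 library, with a log2 difference of -0.97 ± 0.36, but did not pass (adjusted p = 0.14). Fitted on only the 6 libraries compared, Ntn1 passed, with a log2 fold change of -0.96 (adjusted p = 0.014). Sema5a had 178, 236 and 172 CPM in VP4:2, against 447, 258 and 284 CPM in CC4:2, again without overlap (log2 -0.76 ± 0.25, adjusted p = 0.11). Sema3b had 211, 336 and 137 CPM in VP4:2, against 552, 543 and 249 CPM in CC4:2, which overlapped (log2 -0.97 ± 0.51, adjusted p = 0.3). Slit2 and Unc5c had log2 differences of -0.29 and -0.40, with adjusted p of 0.53 and 0.42. Sema4d had 29.9, 37.2 and 21.5 CPM in VP4:2 and 8.63, 26.9 and 10.3 CPM in CC4:2, overlapping through CC4:2 replicate 2 (log2 0.95, adjusted p = 0.23). Without that library it passed, with a log2 fold change of 1.64 (adjusted p = 0.0464), as did Plxnb2 (0.023). Ntn4, with a log2 difference of -0.69 (adjusted p = 0.07), passed without CC4:2 replicate 3 (0.028), as did Sema4a (0.038) and Ephb6 (0.037). With DESeq2, Ntn4 (0.016), Sema5a (0.029), Sema4a (0.032), Plxna3 (0.033), Plxnb2 (0.039) and Ephb6 (0.045) passed. Among the vascular members, Nrp1, Plxnd1, Efnb2, Ephb4, Unc5b and Robo4 were not called.

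Immune markers moved in the same comparison. Of 12 macrophage markers 7 were higher in VP4:2 than in CC4:2, with sums between 2320 and 2740 CPM in VP4:2 and between 1050 and 1540 CPM in CC4:2. Of 10 T and NK cell markers 4 were higher, with sums between 87.2 and 104 CPM in VP4:2 and between 17.6 and 57.4 CPM in CC4:2, and of 8 B and plasma cell markers 2 were higher. Of 8 neutrophil markers 1 was higher. Of 12 Schwann cell markers 0 were called, with a median log2 difference of -0.58. Of 10 nerve fibroblast markers 0 were called, with a median of -0.80. Their sums lay between 21500 and 25800 CPM in VP4:2 and between 29700 and 64900 CPM in CC4:2, without overlap. Of 4 tested perineurial markers 0 were called, with a median of -0.95. Perineurial sums lay between 1480 and 2040 CPM in VP4:2 and between 3760 and 4310 CPM in CC4:2, without overlap. Among neuron markers 1 of 6 tested was higher and 2 were lower, with a median log2 difference of -1.96. Of 11 endothelial markers 1 was lower. The part of any of these cells in the differences of Plxnc1 and the other members was not tested.

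VP4:2 stumps were also set against Control, which shares its VP4:2 and Control libraries with the comparisons above. Of the 59 tested members, 14 were higher in VP4:2 and 3 were lower. Over all tested genes 9.3% were higher and 9.57% were lower, against 23.7% and 5.08% of the tested members. Semaphorins gave 6 of the higher members, Sema3b, Sema3d, Sema4c, Sema4g, Sema5a and Sema6d, and the lower ones were Sema4a, Sema4d and Epha1. The other higher members were Plxnb1, Epha3, Ephb2, Ephb6, Ntn1, Unc5c, Robo2 and Slit2. The smallest adjusted p was that of Robo2, with a log2 fold change of 2.36 ± 0.27 (0.0016). Sema5a had a log2 fold change of 2.13 ± 0.26 (adjusted p = 0.0018), Ntn1 1.99 ± 0.37 (0.0074), Slit2 1.67 ± 0.26 (0.0046) and Unc5c 1.64 ± 0.29 (0.0063). Sema4a had a log2 fold change of -1.50 ± 0.18 (adjusted p = 0.0018), while Plxnc1 was not called (log2 -0.44, adjusted p = 0.24). Whether a member that passed in CC4:2 and not in VP4:2 differed between the conduits is answered only by VP4:2 against CC4:2.

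Cell type markers moved in VP4:2 against Control too. Schwann cell and myelin markers were higher for 8 of 12, with sums between 12700 and 18600 CPM in VP4:2 and between 485 and 4720 CPM in Control. Perineurial markers were higher for 3 of 4 tested, with sums between 1480 and 2040 CPM in VP4:2 and between 181 and 736 CPM in Control. Adipocyte markers were higher for 8 of 8, nerve fibroblast markers for 3 of 10 and pericyte and smooth muscle markers for 1 of 9. T and NK cell markers were lower for 9 of 10, with sums between 87.2 and 104 CPM in VP4:2 and between 285 and 412 CPM in Control. Neutrophil markers and B and plasma cell markers were lower for 7 of 8 each, and macrophage markers for 1 of 12. Their part in the members' changes was not tested.

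Epha3, a receptor of A-class ephrins, had its highest levels in VP4:2. It had 17.2, 17.4 and 8.98 CPM in VP4:2, 3.97, 3.89 and 8.41 CPM in CC4:2, 5.22, 2.98 and 6.16 CPM in CC4:4 and 7.03, 1.95 and 0.888 CPM in Control. VP4:2 lay above every other library, though its replicate 3 was close to CC4:2 replicate 3. The log2 fold change was 2.11 ± 0.64 against Control (adjusted p = 0.042) and 1.42 ± 0.62 against CC4:2, which did not pass (adjusted p = 0.21). Without Control replicate 1, the highest Control library, the log2 fold change against Control was 3.34 (adjusted p = 0.0035). The Epha3 call against Control was lost with platform as a term (0.057) and in the fit of only the 6 libraries (0.1). Of the 17 calls in VP4:2 against Control, 7 were made with each library left out in turn, those of Sema3d, Sema4a, Sema5a, Ntn1, Unc5c, Robo2 and Slit2. Without Control replicate 3 the count was 7, without VP4:2 replicate 2 it was 8, and without VP4:2 replicate 1 it was 9. All 10 others missed without Control replicate 3, with adjusted p from 0.0545 for Sema3b to 0.11 for Sema4c and Plxnb1. Sema3b and Ephb6 aside, 8 of them missed without VP4:2 replicate 1, and Ephb6 and those 8 missed without VP4:2 replicate 2. Ephb2, Sema4c, Sema4d, Epha1 and Epha3 also missed without VP4:2 replicate 3, Ephb2, Sema4d and Epha3 without Control replicate 2, and Sema4c and Plxnb1 without Control replicate 1. Without Control replicate 1, Efnb1 (log2 1.65, adjusted p = 0.0016), Slit3 (log2 1.05, adjusted p = 0.014), Sema6a (0.014), Sema4f (0.023), Epha2 (0.023), Sema4b (0.037) and Sema3c (0.039) passed, and without VP4:2 replicate 3 Slit3 passed (0.03). In the NovaSeq X Plus libraries alone only Robo2 was called.

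CC4:2 stumps were set against CC4:4 stumps to compare the conduit gradients. Of the 59 tested members, 22 were higher in CC4:2 and 6 were lower. Over all tested genes 18.5% were higher and 20.7% were lower, against 37.3% and 10.2% of the tested members. The higher members with the smallest adjusted p were Sema5a (log2 2.81 ± 0.27, 8.8e-05), Unc5c (2.09 ± 0.29, 4.9e-04), Slit2 (1.90 ± 0.26, 5.0e-04) and Ntn1 (2.47 ± 0.37, 7.7e-04). The 6 lower members were Sema4a, Sema4d, Plxna1, Plxnc1, Epha1 and Epha7. Plxnc1 had a log2 fold change of -2.23 ± 0.27 (adjusted p = 2.6e-04), and its 3 CC4:2 libraries lay below all CC4:4 libraries. Schwann cell markers were higher for 11 of 12 here too, and perineurial markers for 4 of 4 tested. Adipocyte markers were higher for 4 of 8 and nerve fibroblast markers for 4 of 10. T and NK cell markers were lower for 10 of 10, neutrophil markers and B and plasma cell markers for 8 of 8 each, and macrophage markers for 7 of 12. Among 6 tested neuron markers 3 were higher and 1 lower. Skeletal muscle sums ran from 166 to 9580 CPM in CC4:2, and 0 of 6 markers were called. The part of these cells was not tested.

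Among semaphorins, Sema3b, Sema3c, Sema3d, Sema4c, Sema4g, Sema5a, Sema5b, Sema6c and Sema6d were higher in CC4:2 than in CC4:4. Plxnb3 had 71.1, 52.1 and 33.9 CPM in CC4:2, against 6.63, 3.52 and 3.21 CPM in CC4:4, a clear separation (log2 3.55 ± 0.90, adjusted p = 0.011). Plxnb1, Plxna3 and Nrp2 were higher as well, with log2 fold changes of 2.43, 1.06 and 0.71. Robo2, called against Control, did not pass against CC4:4 (log2 0.36, adjusted p = 0.3), and neither did Efnb1 (0.92, adjusted p = 0.067), Robo4 or Sema3g. In Sema3e the CC4:4 libraries held 5.4, 0.136 and 0.41 CPM, and without the high replicate 1 its log2 fold change was 3.79 (adjusted p = 0.0032), against 0.94 (0.44) with all libraries. Plxna4 (0.015), Sema6b (0.032) and Sema3g (0.043) passed without that library too. Of the 28 calls, 25 were made with each library left out in turn. Ephb1, Epha2 and Plxna1 missed, with adjusted p up to 0.25, 0.15 and 0.12. Epha2 missed when replicate 2 or 3 of either group was out, and Plxna1 when replicate 1 or 3 of either group was. Ephb1 missed when replicate 2 or 3 of CC4:4 was out, or replicate 1 or 2 of CC4:2. In the NovaSeq X Plus libraries alone 20 of the 28 were called.

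**Figure D4:**
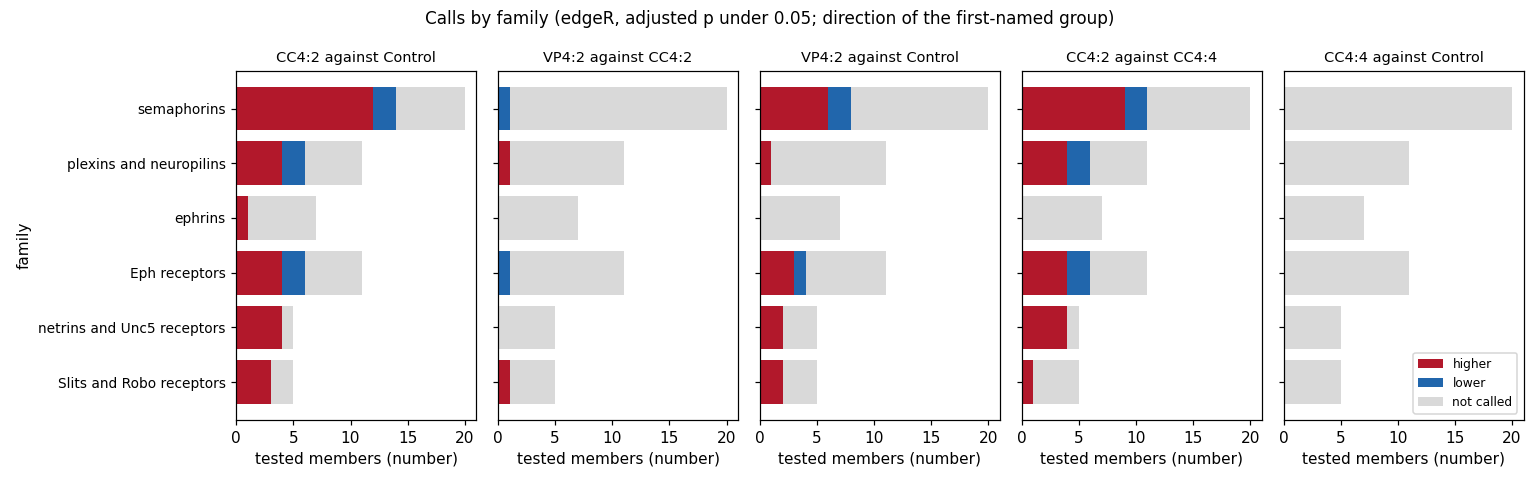
Number of tested members of each family called higher (red), called lower (blue) or not called (grey) in the first-named group of each comparison. Semaphorins gave the most calls in CC4:2 against Control, 12 higher and 2 lower, and CC4:4 against Control gave 0.

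CC4:4 stumps were set against Control stumps to see which members differed under the 4:4 conduit. None of the members passed (0 of 59), and neither did any of the 15712 genes tested with edgeR (0%). At an unadjusted p under 0.05 there were 3 members, Robo2, Robo4 and Ephb2, beside 830 of all genes, and DESeq2 called 0 members and 10 genes. Robo2 had the smallest p, with 7.39, 12.5 and 6.7 CPM in CC4:4 and 4.89, 4.29 and 4.68 CPM in Control, which did not overlap (log2 0.94 ± 0.27, unadjusted p = 0.0052, adjusted p = 0.93). Ephb2 had a log2 difference of 0.72 and Robo4 of 0.65, with overlapping groups and adjusted p of 0.93 each. Without Control replicate 1, Efna1 and Efna5 passed, with log2 fold changes of 1.21 (adjusted p = 0.038) and 1.81 (0.023), higher in CC4:4. For both genes that library held the highest Control value, 35.9 CPM for Efna1 and 17.7 CPM for Efna5. A p that misses the threshold does not show that these groups were alike.

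Other proteins of the pathway were followed by lists. These were chosen with earlier results of these data known, so their counts are given as a description. Of 21 other guidance ligands and receptors 18 were tested, and 13 were higher and 1 was lower in CC4:2 than in Control, beside 20.3% and 23.2% of all tested genes. The higher genes with the smallest p were Rgmb, a co-receptor for bone morphogenetic proteins (log2 1.94 ± 0.22, adjusted p = 1.4e-04), Itga1, an integrin of collagen and laminin (1.53 ± 0.21, 3.9e-04), and Islr2, a protein of axon membranes (2.65 ± 0.38, 4.6e-04). Neo1, the netrin receptor neogenin, was higher too (1.52 ± 0.22, 4.6e-04), and was named after its value was seen. Draxin, a secreted antagonist of netrin signalling, was lower, at a mean of 0.36 CPM in CC4:2 and 10.7 CPM in Control (log2 -4.87 ± 0.99, adjusted p = 0.0029). In VP4:2 against CC4:2, 2 of the 18 were lower and 0 higher, Islr2 (log2 -2.64 ± 0.38, adjusted p = 0.002) and Rgmb (-0.86 ± 0.21, 0.039), beside 0.999% lower and 5.23% higher of all tested genes. In VP4:2 against Control 7 were higher and 2 lower (9.3% and 9.57% of all tested genes), in CC4:2 against CC4:4 12 were higher and 1 lower (18.5% and 20.7%), and in CC4:4 against Control 0 were called.

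Cytoplasmic effectors carry the signal from the receptors to the skeleton of the cell. Of 49 listed genes 46 were tested, and 15 were higher and 9 lower in CC4:2 than in Control, beside the same 20.3% and 23.2% of all tested genes. Ngef, which encodes ephexin, the exchange factor downstream of Eph receptors, was higher, at means of 10.6 CPM in CC4:2 and 1.1 CPM in Control (log2 3.26 ± 0.27, adjusted p = 2.9e-05). Mical3, of a family of oxidases that act on actin below plexins, and Arhgef12, an exchange factor bound by B plexins, had log2 fold changes of 1.39 and 1.22. Fes, a kinase of plexin signalling that is also known from myeloid cells, and Vasp and Evl, which promote actin filament growth, were lower, with log2 fold changes of -1.45, -1.61 and -1.33. In VP4:2 against CC4:2 these effectors gave 3 higher and 1 lower gene, beside 5.23% and 0.999% of all tested genes. Ngef was lower, at 3.34 CPM in VP4:2 and 10.6 CPM in CC4:2 (log2 -1.66 ± 0.24, adjusted p = 0.0023). Fes (log2 0.72), Vasp (0.67) and Rasa1 (0.66), which encodes a Ras GTPase activator, were higher in VP4:2. In VP4:2 against Control 8 were higher and 4 lower (9.3% and 9.57% of all tested genes), in CC4:2 against CC4:4 14 were higher and 8 lower (18.5% and 20.7%), and in CC4:4 against Control 0 were called.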

How the data were processed

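Poly(A) RNA of 12 stumps went into stranded libraries sequenced from both ends at 150 bases, replicates 1 and 2 of each group on a NovaSeq X Plus and replicate 3 on a DNBSEQ-T7, per the labels' protocols. The authors deposited expected counts (estimates that can be fractional), and the table records no normalization. Per the submitters' processing notes HISAT2, StringTie, RSEM and DESeq2 were used; build, annotation and versions are not given in the sources used here. As the 12 tables were identical, 1 was read. Counts were rounded; 10 members held values that were not whole in some library. Replicates differed by more than sampling noise (chi-square per degree of freedom 47.3 to 318).

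Genes were tested with edgeR 4.0.16 (R 4.3.3, limma 3.58.1): TMM scaling, filterByExpr, 1 fit of all 12 libraries with a term per group (8 residual degrees of freedom), quasi-likelihood test, Benjamini-Hochberg over 15712 genes. The SE is the absolute log2 fold change over the root of its F statistic. CPM are TMM-scaled, with the SD over 3 libraries. The test was also run on simulated counts drawn with the fitted spread, without an outlying library or a platform effect. That run does not bear on calls that turn on either. Alternatives were RLE scaling, no filter, DESeq2 1.42.0, the 6 libraries compared alone, a replicate block, platform as a term, the NovaSeq X Plus libraries alone, and each library left out.

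Members and lists were chosen with earlier results of these data known. Named members are 23 with known roles in nerve or vessels and, per comparison and family, up to 4 called members of smallest p in each direction with a mean of at least 1 CPM; further members named in lists of calls, and those whose call turns on 1 library, were added after their values were seen. Promoter sequences are RefSeq's on GRCr8; 15 members had no entry.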

Additional observations from a re-analysis of the deposited data

How the results depend on the processing

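Scaling by RLE size factors and the fit of only the 6 libraries compared left each count of called members within 1.5 times its main value. In CC4:2 against Control, 34 members became 21 in the NovaSeq X Plus libraries alone, and 29 to 40 with a library left out. In VP4:2 against CC4:2, 4 members became 1 with the replicate block, 2 with platform as a term, 0 in the NovaSeq X Plus libraries alone and 10 with DESeq2, and 1 to 5 with a library left out. The replicate block lost Robo2 (adjusted p = 0.066), Ephb2 (0.064) and Sema5b (0.09). In VP4:2 against Control, 17 members became 1 in the NovaSeq X Plus libraries alone, which hold fewer samples, and 7 to 22 with a library left out. In CC4:2 against CC4:4 the 28 members were 25 to 31 with a library left out, and in CC4:4 against Control 0 became 0 to 2. The replicate block gave 32 in CC4:2 against Control, 17 in VP4:2 against Control, 27 in CC4:2 against CC4:4 and 0 in CC4:4 against Control. Deviations of same-numbered libraries had a median r of 0.03 over 18 pairs, 7 of them over 0.1. Over 36 pairs of other numbers the median r was -0.02, with 9 over 0.1. Of 12 libraries 3 correlated best with their own number. With 3 libraries a group this cannot show whether the numbers pair the samples. Number 3 is also the DNBSEQ-T7 library in each group. The cause of the shifts was not tested. No called member changed sign under any setting (0). With 3 libraries a group, members under about 1 CPM gave little precision, and intervals cover counting and sample spread together.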

Other observations

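The 9 members left out of the test had few or no counts in any group. Over the 12 libraries, Unc5a held 80 counts, Efna3 and Epha5 40 each, Robo3 24, Slit1 9, and Epha8, Ntn5 and Unc5d 3 each, while Epha6 was at 0. The 3 Unc5d counts were 1 in each CC4:2 library and 0 elsewhere, and the 3 Epha8 counts came from 1 VP4:2 library. Such counts carry no comparison between groups.

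Efnb3, the third B-class ephrin gene, held 0.88, 4.74 and 0.41 CPM in CC4:4, against 0.731, 1.02 and 1.29 CPM in Control, so its CC4:4 mean rested on replicate 2. Plxnb2, the plexin B2 gene, had 339, 354 and 379 CPM in VP4:2, against 220, 321 and 215 CPM in CC4:2, without overlap (log2 0.51, adjusted p = 0.12). Epha10, a receptor gene without kinase activity, averaged 0.904 CPM in VP4:2 and 0.216 CPM in CC4:2 (log2 2.03, adjusted p = 0.14), close to the lowest levels the test could use.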
